A study of Drosophila melanogaster with 16 samples.

Results

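Chromosome 4 of Drosophila melanogaster, the dot chromosome, was examined in larvae that carried an extra copy of another chromosome or arm and in larvae of the same karyotypes that also over-expressed MSL2. The members were the transcripts that the deposited tables place on chromosome 4, apart from those of genes named CR plus digits. They numbered 247 of 28705 transcripts, from 80 of 15953 genes, in the autosomal aneuploidy table and 213 of 23991 transcripts, from 77 of 13861 genes, in the sex chromosome aneuploidy table. The smaller set was contained in the larger one, and NfI, unc-13 and zfh2 were listed only in the autosomal table. In the RefSeq annotation of the same genome release, 77 of the 80 genes were protein coding, sphinx was a long noncoding RNA, mir-954 was a miRNA and snoR:CD-24 had no entry under its symbol. The members lay between bases 879 and 1271759 of chromosome 4 (Release 6).

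The dot chromosome is small and largely heterochromatic, yet its genes are transcribed. In flies, the chromosome-specific protein POF binds active genes of chromosome 4 and raises their output, the heterochromatin protein HP1a binds the same genes, and the histone methyltransferase Setdb1 (encoded by egg) places the methyl mark that HP1a recognises there. MSL2 is the male-specific subunit of the MSL complex, which binds the X chromosome of males, acetylates histone H4 and takes part in dosage compensation; females normally do not make it because Sex lethal blocks its translation.

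RNA was taken from pools of whole larvae at the third instar, grown at 25 °C. Trisomy 2L females (XX) and males (XY) had 3 copies of the left arm of chromosome 2 and came from y; C(2L)dp; F(2R) bw mothers and Canton S fathers. Metafemales had 3 X chromosomes and came from C(1)DX, ywf/winscy mothers and Canton S fathers. The MSL2-trisomy 2L females, MSL2-trisomy 2L males and MSL2-metafemales had the same mothers, but fathers homozygous for an MSL2 transgene on 2R, so that each larva inherited 1 transgene copy. The diploid females and males were Canton S, a wild-type stock. Per the labels, trisomy 2L was sequenced in 3 libraries for either sex, metafemales in 2, and the MSL2 crosses in the same numbers; no diploid library is labelled. Each table holds 1 mean per group, so no value here has a replicate error and no difference could be tested. The study's methods place diploids in single-end runs, the MSL2 groups in paired-end runs, and trisomy 2L and metafemales without MSL2 in both, and do not say which libraries entered each mean. For the MSL2 groups, run and genotype cannot be told apart in a ratio to diploids, beyond the authors' batch adjustment; for the groups without MSL2 the run is shared in part. The diploids also differed from all aneuploids in strain, which cannot be told apart from karyotype.

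The labels were checked first. Transcripts of msl-2 (encoded on 2L) summed to 177 CPM (read counts scaled to the mapped reads of a library, as adjusted by the authors) in MSL2-trisomy 2L females against 20.1 in trisomy 2L females, to 266 against 52.8 in males and to 95.3 against 8.31 in metafemales. The median log2 ratio of 2L transcripts to diploids was between 0.13 and 0.21 in the trisomy 2L groups, and that of X transcripts was 0.17 in metafemales and 0.081 in MSL2-metafemales. Testis markers summed to 441 to 780 CPM in the male columns and to 0.777 to 9.53 CPM in the female columns. Salivary glue genes stood lower and muscle genes higher in each aneuploid column than in its diploid column, with values given beside the results below.

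Transcripts of chromosome 4 had a median ratio below 1 to the diploids of the same sex in all 6 aneuploid columns, and in each of them its median was the lowest of all chromosomes and arms. In trisomy 2L females the median log2 ratio of the 213 transcripts with both means was -0.65, with quartiles at -1.47 and 0.0032, and 159 of them (74.6%) were below 1. In MSL2-trisomy 2L females it was -0.89 over 172 transcripts, of which 129 (75%) were below 1. On 2R, 3L and 3R, 58.7% and 58.8% of the transcripts were below 1 in the same contrasts. The other disomic autosomes (2R, 3L and 3R) had medians of -0.22 and -0.28 in the same contrasts, differences of -0.43 and -0.61 on the log2 scale. A factor common to a whole column cancels in this difference, which matters because the median of all transcripts was itself between -0.31 and -0.12 in the 6 contrasts to diploids.

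In males the shift was smaller. The median of chromosome 4 was -0.31 over 225 transcripts in trisomy 2L males and, with MSL2, -0.52 over 194, against -0.25 and -0.23 for 2R, 3L and 3R. Chromosome 4 minus the other disomic autosomes was therefore -0.065 without MSL2 and -0.29 with it. Metafemales had a median of -0.49 over 195 transcripts and MSL2-metafemales one of -0.58 over 169, against -0.26 and -0.39 for 2L, 2R, 3L and 3R, differences of -0.23 and -0.19.

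**Figure D1:**
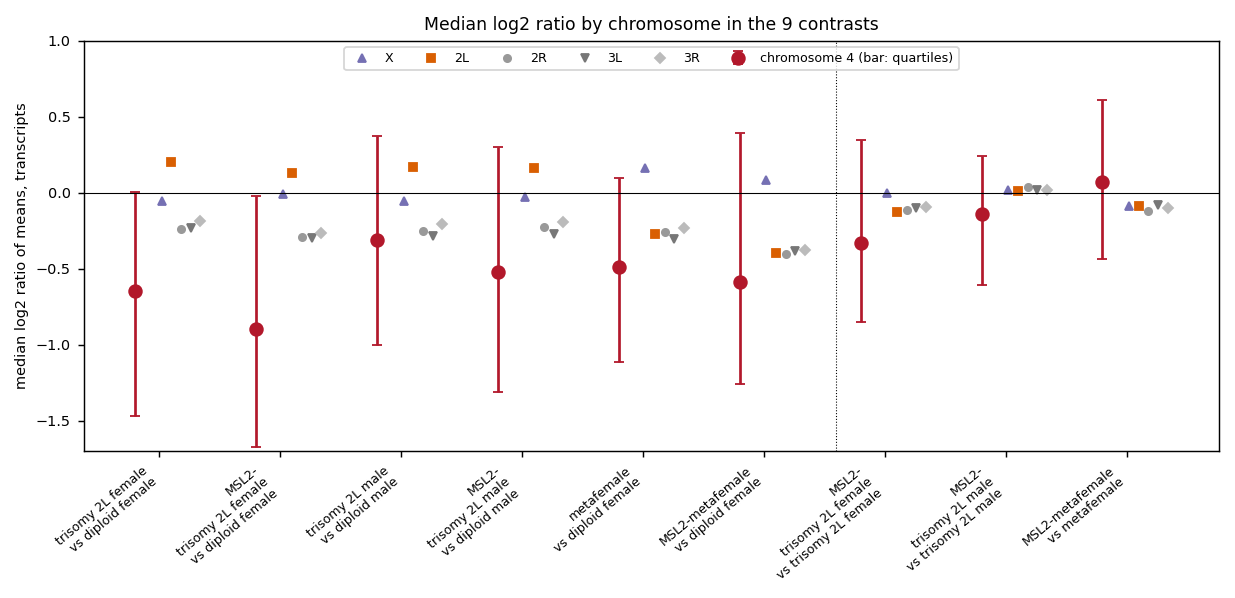
Median log2 ratio of transcript means (y axis) by chromosome or arm in the 6 contrasts to diploids and, right of the dotted line, the 3 contrasts with against without MSL2 (x axis). The red point is chromosome 4 with its quartiles, which span both sides of 0 in most contrasts, and its median lies lowest in trisomy 2L females with MSL2, at -0.89.

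The deposited tables contain a yardstick for these differences, since each holds a diploid female and a diploid male column. The tables were normalised separately and do not say which libraries entered them. Between the diploid female columns (autosomal over sex chromosome table) chromosome 4 had a median log2 ratio of 0.12 over 183 transcripts and the other disomic autosomes one of -0.057, a difference of 0.18. Between the diploid male columns the difference was 0.23. The differences of trisomy 2L females, with and without MSL2, were larger than these, and those of trisomy 2L males and both metafemale groups were of about the same size or smaller, apart from MSL2-trisomy 2L males, at -0.29.

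Genes were then counted, with the transcripts of a gene summed and at least 1 CPM in either column. In trisomy 2L females 36 of 74 genes were at least 1.5-fold lower and 6 at least 1.5-fold higher, where 22.2% of all genes of the table were lower and 26% higher. In MSL2-trisomy 2L females 46 of 72 were lower and 4 higher, against 33.8% and 27.3% of all genes. Lower genes thus made up a larger share of chromosome 4 than of the table, and higher genes a smaller one.

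In trisomy 2L males 25 of 78 genes were lower and 7 higher, against 31.3% and 24.1% of all genes, so that the share of lower genes was near the background. In MSL2-trisomy 2L males 39 of 77 were lower and 2 higher, against 31.2% and 26.7%. In metafemales 24 of 72 were lower and 12 higher, against 31.9% and 18.8%, and in MSL2-metafemales 29 of 69 were lower and 12 higher, against 38.6% and 20.5%, shares close to those of all genes. The MSL2 columns lack means for more transcripts, and a removed mean counts as 0 in a sum. When only transcripts with both means were summed, an alternative chosen after seeing the data, 39 of 73, 43 of 71, 26 of 78, 35 of 74, 27 of 72 and 31 of 69 genes were lower in the same order, against 23.6%, 34.1%, 32.3%, 31.8%, 32.6% and 38% of all genes. The higher genes then numbered 4, 7, 6, 2, 11 and 13, against 24.2%, 26.7%, 22.9%, 26%, 18.3% and 21.2%.

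The diploid columns of the 2 tables set a scale for these counts too. For diploid females 12 of 71 genes were at least 1.5-fold lower and 17 higher in the autosomal than in the sex chromosome table, against 31.4% and 18.4% of all genes. For diploid males 8 of 74 were lower and 27 higher, against 21% and 34.8%. A single gene past 1.5-fold in 1 contrast therefore lies within the range that the same diploid group spanned between tables. The largest such differences in females were those of dpr7 (0.0152 and 6.03 CPM), yellow-h (7.72 and 0.506 CPM), CG33521 (27.1 and 4.62 CPM), dati (4.26 and 19.1 CPM), Mitf (51.1 and 12.7 CPM), Ephrin (83.4 and 21.1 CPM) and Hcf (49.2 and 14.1 CPM).

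**Figure D2:**
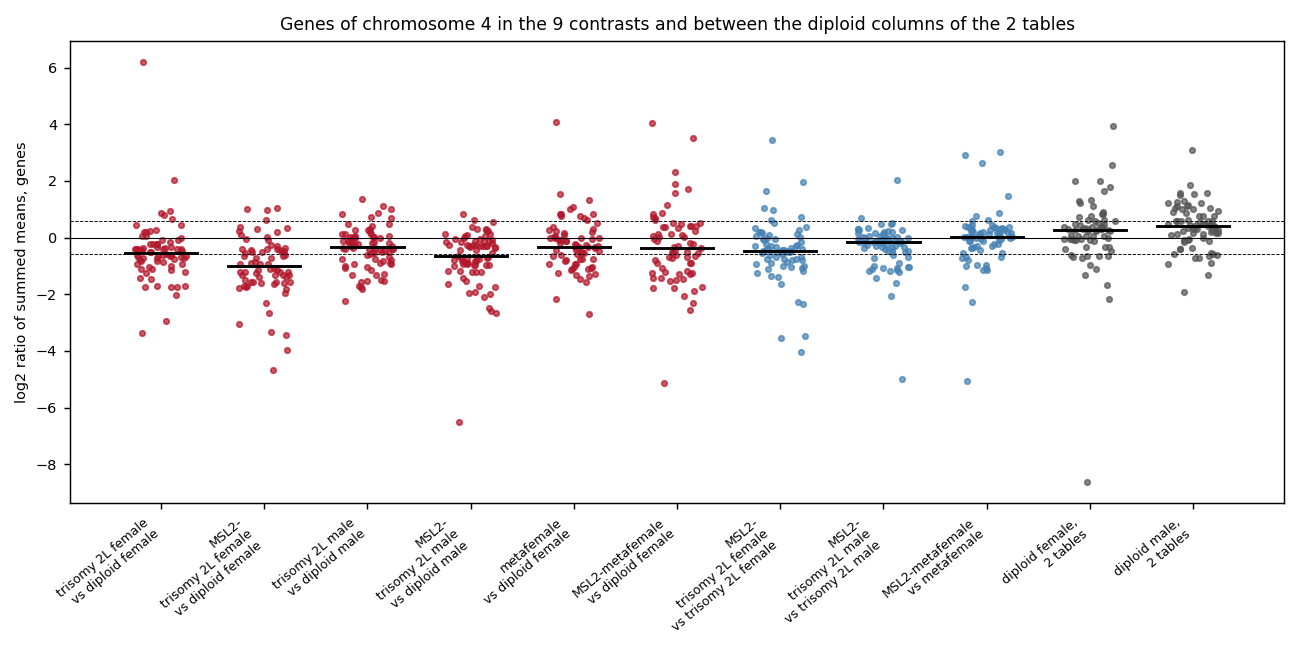
Log2 ratio of summed means (y axis) for each gene of chromosome 4 with at least 1 CPM in either column, in the 6 contrasts to diploids (red), the 3 MSL2 contrasts (blue) and the autosomal over the sex chromosome table for each diploid sex (grey). Black bars are medians and dashed lines mark 1.5-fold; 36 and 46 genes lie below the lower line in trisomy 2L females without and with MSL2, and 12 in the diploid female comparison.

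A stricter description asks which genes lay outside both diploid columns of their sex. In females 27 of 72 genes had all 4 aneuploid columns below both diploid columns, against 23.9% of all genes, and only apolpp had all 4 above, against 11%. In males 25 of 75 genes had both trisomy columns below both diploid columns, against 27.5% of all genes, and 5 (ATPsynbeta, apolpp, Cals, Zyx and fuss) had both above, against 26.8%. Levels of separately normalised tables are set side by side in these counts, which were chosen after seeing the data. The genes below both diploid columns in each sex included Rad23, PIP4K, MED26, pho, lgs, RpS3A, Arf102F, CG31997, CG11360, CG32850, CG33941, CG1909, Sox102F, dati and eIF4G.

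The total over chromosome 4 was dominated by 3 genes and moved differently from the median. Chromosome 4 summed to 12869 CPM in diploid females, 11716 in trisomy 2L females and 11695 in MSL2-trisomy 2L females. It summed to 10172, 11659 and 10022 CPM in the corresponding male columns and to 10437, 11118 and 11493 CPM in the diploid female, metafemale and MSL2-metafemale columns of the other table. In every column apolpp, RpS3A and ATPsynbeta, named here by their position on 1 chromosome and not by any shared role, held between 64.2% and 83.9% of the sum.

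Without these 3 genes the sums were ordered differently. The remaining genes summed to 3562 CPM in diploid females, 2649 in trisomy 2L females and 1880 in MSL2-trisomy 2L females. In males they summed to 3637, 2837 and 2456 CPM, and in the other table to 2823 CPM in diploid females, 2325 in metafemales and 2705 in MSL2-metafemales. The loss was spread over many genes: in trisomy 2L females 63 genes lost CPM and 14 gained, and 11 genes made up 52.6% of the summed loss of -1137 CPM (largest first Rad23, PMCA, MED26, Ephrin, PIP4K, CG31997, Ank and CG2316), while in MSL2-trisomy 2L females 66 genes lost CPM and 11 gained. These counts hold changes of any size and were not made for all genes. Of the transcripts on 2R, 3L and 3R, 58.7% and 58.8% had a ratio below 1 in the same contrasts.

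The genes that the naming rule took as lower in all 6 contrasts were Rad23, PIP4K, MED26 and pho. The 4 contrasts of females share 1 diploid column per table and the 2 of males share another, so these are not independent repeats. Genes lower in all 6 contrasts were not counted over all genes, so their number has no background share. Rad23 (chr4:308093-310822), a ubiquitin receptor that delivers proteins to the proteasome and takes part in DNA repair, stood at 206 CPM in diploid females, 116 in trisomy 2L females and 82.1 in MSL2-trisomy 2L females. It stood at 238, 127 and 128 CPM in the male columns and at 173, 109 and 109 CPM in the diploid female, metafemale and MSL2-metafemale columns. Every aneuploid value of Rad23 was below every diploid value, and the log2 ratios to diploids ran from -1.32 to -0.66.

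PIP4K (chr4:1192419-1196848), a phosphatidylinositol 5-phosphate 4-kinase that supports larval growth, gave 126, 74.1 and 40.1 CPM in the diploid, trisomy 2L and MSL2-trisomy 2L females. The male columns held 138, 81.6 and 77.7 CPM, and the diploid female, metafemale and MSL2-metafemale columns 108, 56.8 and 57.4 CPM. Both of its transcripts were lower in each of the 6 contrasts, although its end overlaps that of CG33521 on the opposite strand by 567 bp.

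MED26 (chr4:778516-787614), a subunit of the Mediator complex that links transcription factors to RNA polymerase II, gave 104, 48.3 and 35.0 CPM in females, 133, 65.8 and 68.4 CPM in males and 108, 61.0 and 46.8 CPM in the sex chromosome table. Its diploid female columns, 104 and 108 CPM, lay close together, and its log2 ratios ran from -1.57 to -0.82. Pleiohomeotic (pho, chr4:1172469-1181628), a DNA-binding protein that recruits Polycomb group complexes, gave 62.3, 38.1 and 18.4 CPM in females, 85.9, 50.1 and 44.9 CPM in males and 62.3, 32.8 and 33.1 CPM in the sex chromosome table. The diploid female columns of pho were equal to 3 digits, and its lowest ratio, a log2 of -1.76, was that of MSL2-trisomy 2L females.

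**Figure D3:**
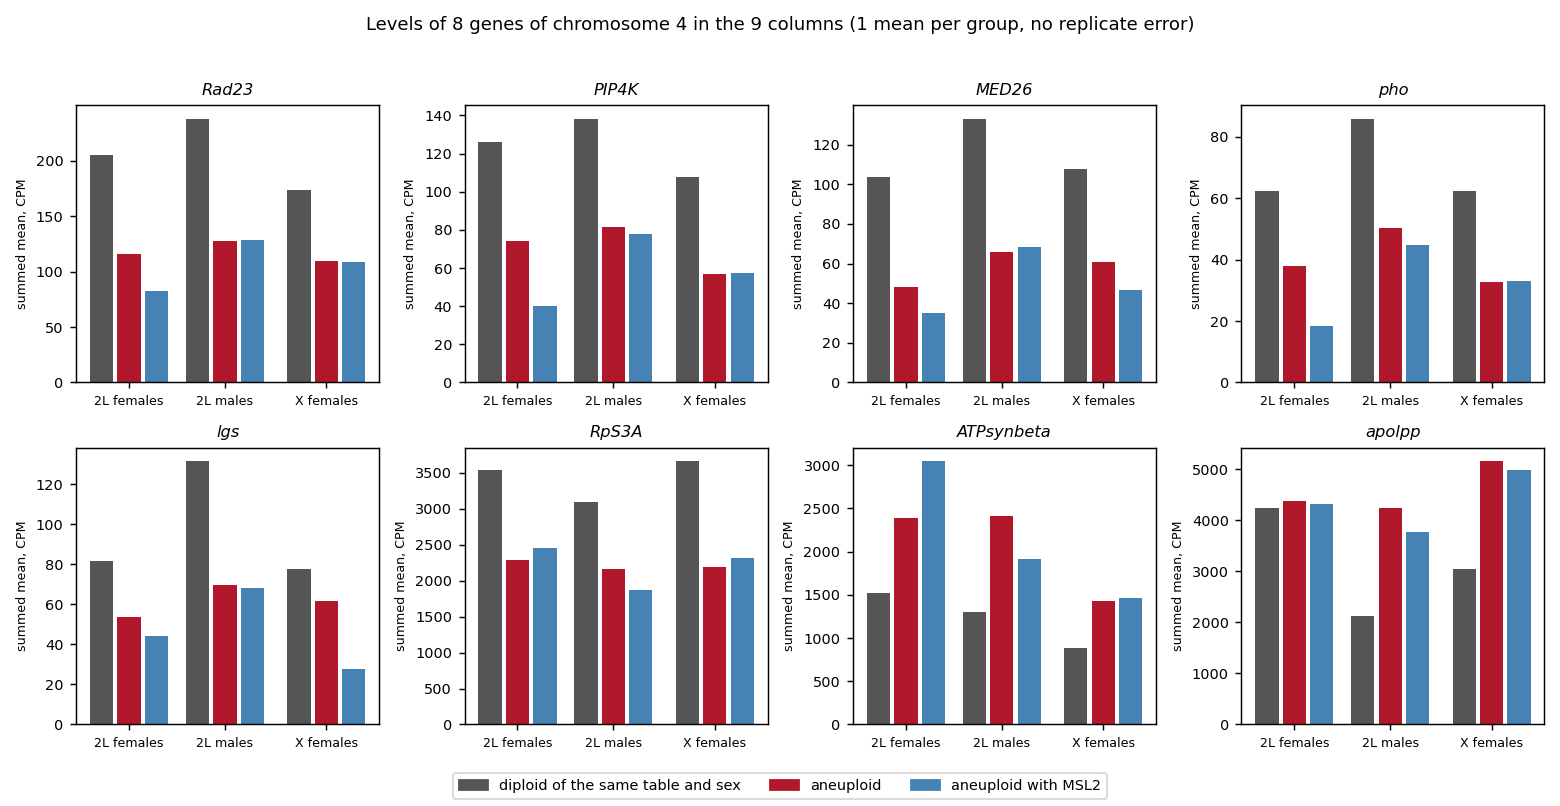
Summed mean level in CPM (y axes, from 0) of 8 genes in 3 sets of columns (x axis): diploid, trisomy 2L and MSL2-trisomy 2L females, the same for males, and diploid females, metafemales and MSL2-metafemales ("X females"). Bars are 1 mean per group without replicate error; Rad23, PIP4K, MED26 and pho are lower in all aneuploid columns than in the diploid column of the set (for pho 18.4 to 50.1 CPM against 62.3 to 85.9 CPM).

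A further 5 genes were lower in 5 of the 6 contrasts: lgs, Eph, Sox102F, dati and CG33941. Genes lower in 5 contrasts were not counted over all genes either, so their number has no background share. Legless (lgs), the BCL9 homologue that acts with armadillo in Wingless signalling, gave 81.6, 53.8 and 44.3 CPM in females and 132, 69.8 and 68.3 CPM in males. In the other table it gave 77.7 CPM in diploid females, 61.9 in metafemales and 27.8 in MSL2-metafemales, and the metafemale ratio, a log2 of -0.33, was the one inside 1.5-fold.

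The other 4 had lower levels. CG33941 stood between 7.33 and 16.4 CPM in the 4 diploid columns and between 3.35 and 5.53 CPM in the 6 aneuploid ones. Sox102F, which encodes a Sox family transcription factor, stood between 8.48 and 13.2 CPM in diploids and between 3.6 and 7.91 CPM in aneuploids, so that neither gene's groups overlapped. The most abundant Sox102F transcript alone did not share this, with log2 ratios of 0.0096 in trisomy 2L males and 0.051 in metafemales. Eph, the single ephrin receptor of the fly, gave 11.8 CPM in diploid females and 14.4 in MSL2-trisomy 2L females, its 1 value above the diploid of its set, and its diploid female column in the other table was at 29.3 CPM; dati, a zinc finger factor, was at 4.26 and 19.1 CPM in the diploid female columns, a gap of the same order as its ratios, which ran from -2.70 to -0.38 on the log2 scale.

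The 3 genes with the most reads did not move as 1 group. RpS3A (chr4:65225-67207), a protein of the small ribosomal subunit, gave 3543 CPM in diploid females, 2287 in trisomy 2L females and 2450 in MSL2-trisomy 2L females. Its male columns held 3103, 2166 and 1878 CPM, and the diploid female, metafemale and MSL2-metafemale columns 3671, 2194 and 2324 CPM. All 6 ratios lay between -0.74 and -0.52 on the log2 scale. The cytosolic ribosomal protein genes of all chromosomes together (85 genes in the female contrasts and 92 in the male ones) had medians between -0.45 and -0.12 in the same contrasts, so RpS3A stood below the median of its family in each.

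ATPsynbeta (chr4:1031484-1034917), the catalytic beta subunit of mitochondrial ATP synthase, was the 1 gene the rule named as higher in 5 contrasts. Genes higher in 5 contrasts were not counted over all genes. ATPsynbeta gave 1520, 2392 and 3052 CPM in the diploid, trisomy 2L and MSL2-trisomy 2L females. In males it gave 1304, 2409 and 1911 CPM. The diploid female, metafemale and MSL2-metafemale columns held 886, 1427 and 1469 CPM. The aneuploid values of ATPsynbeta exceeded the diploid value of their own table and sex in every case, with log2 ratios from 0.55 to 1.01. The diploid columns of the 2 tables differed by as much, 0.78 in females and 1.13 in males (1304 and 595 CPM), and both metafemale values lay below the other diploid female column. The 11 ATP synthase genes of the tables, ATPsynbeta among them, had medians of 0.11 and 0.38 in the trisomy 2L and MSL2-trisomy 2L females. In the metafemale groups the medians were 0.69 and 0.73, which are the ratios of ATPsynbeta itself. The 15 genes of the male contrasts had medians of 0.23 and -0.097.

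Apolipophorin (apolpp, chr4:1060969-1077273), the precursor of the main lipid carrier of the haemolymph and a product of the fat body, gave 4244, 4388 and 4313 CPM in the diploid, trisomy 2L and MSL2-trisomy 2L females, values close to each other. In males it gave 2127, 4248 and 3777 CPM, and in the other table it held 3056 CPM in diploid females, 5171 in metafemales and 4995 in MSL2-metafemales. Fat body markers (6 genes) summed to 84265, 120274 and 125731 CPM in the female columns, 72195, 97258 and 95816 CPM in the male columns and 58356, 58176 and 64854 CPM in the diploid female, metafemale and MSL2-metafemale columns. In bulk RNA of whole larvae, more cells of a type and more RNA per cell cannot be told apart, and the part of tissue make-up in these levels was not tested.

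Tissue markers moved with the aneuploid columns. The 7 salivary gland markers summed to 31212 CPM in diploid females, 9566 in trisomy 2L females and 1016 in MSL2-trisomy 2L females. They summed to 30530, 9820 and 12851 CPM in males and to 43060, 4361 and 2405 CPM in the diploid female, metafemale and MSL2-metafemale columns. Muscle markers (9 genes) went the other way, from 13585 to 21975 and 35706 CPM in females, from 11041 to 24802 and 18661 CPM in males and from 6846 to 24721 and 26987 CPM in the sex chromosome table. Nervous system markers summed to between 292 and 396 CPM in all these columns, and gut markers were lowest in MSL2-trisomy 2L females, at 4221 CPM. Their part in the shift of chromosome 4 was not tested.

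Among the transcription and chromatin genes of the chromosome, all 18 listed genes passed the minimum in trisomy 2L females; 10 were lower and 0 higher, with a median log2 ratio of -0.60, where 22.2% of all genes of the table were lower and 26% higher. In MSL2-trisomy 2L females 12 of 17 were lower and 1 higher, with a median of -1.33, against 33.8% and 27.3% of all genes. In males 9 of 18 were lower without MSL2 and 10 with it, with medians of -0.64 and -0.78, against 31.3% and 31.2% lower of all genes. In metafemales 4 of 15 were lower and 3 higher, and in MSL2-metafemales 6 and 3, with medians of -0.32 and -0.44, against 31.9% and 38.6% lower of all genes. Of all genes 18.8% and 20.5% were higher in these contrasts. The list counts Gyf, whose mammalian homologues act in translation, and does not hold MED26; without Gyf, a count chosen after seeing the data, 9, 12, 8, 10, 4 and 6 genes were lower. The medians over all genes of chromosome 4 were -0.54, -1.01, -0.33, -0.64, -0.31 and -0.36 in the same order of contrasts.

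Cubitus interruptus (ci), the transcription factor of the Hedgehog pathway, gave 70.9, 54.2 and 23.8 CPM in the diploid, trisomy 2L and MSL2-trisomy 2L females and between 54.3 and 78.3 CPM in all other columns. The low value of ci was thus found, among these 10 columns, only in MSL2-trisomy 2L females. Mitf, a regulator of lysosomal genes, gave 51.1 CPM in diploid females and 15.3 and 15.8 CPM in the trisomy 2L females without and with MSL2, but its other diploid female column was at 12.7 CPM. The Pax6 genes ey and toy, which direct eye development, were lower in all 4 aneuploid female columns than in both diploid ones: ey stood between 4.77 and 5.83 CPM against 6.59 and 7.78 CPM, and toy between 6.08 and 11.3 CPM against 15.5 and 16.8 CPM.

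Pur-alpha, which encodes a single-stranded nucleic acid binding protein, gave 26.4, 6.44 and 2.46 CPM in the diploid, trisomy 2L and MSL2-trisomy 2L females. In males it gave 13.5, 6.49 and 4.69 CPM, while the sex chromosome table held 10.7 CPM in diploid females, 10.4 in metafemales and 14.3 in MSL2-metafemales. The other diploid male column of Pur-alpha was at 5.86 CPM, below trisomy 2L males, so that the direction in males depends on the diploid column. NfI, a nuclear factor I gene listed only in the autosomal table, was at 10.9, 8.23 and 0.704 CPM in females and at 12.3, 4.86 and 2.18 CPM in males. The zinc finger homeodomain gene zfh2, also in that table alone, stayed below 5 CPM in every column and had no mean in MSL2-trisomy 2L females.

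Of 14 signalling and adhesion genes, 9 were lower and 1 higher in trisomy 2L females and 11 were lower and 1 higher in MSL2-trisomy 2L females, with median log2 ratios of -0.68 and -1.27, where 22.2% and 33.8% of all genes were lower. In males 3 were lower and 1 higher without MSL2 and 6 lower and 0 higher with it, with medians of -0.19 and -0.42, where 31.3% and 31.2% of all genes were lower. In metafemales 5 were lower and 3 higher, and in MSL2-metafemales 7 and 2, where 31.9% and 38.6% of all genes were lower. Of all genes 26%, 27.3%, 24.1%, 26.7%, 18.8% and 20.5% were higher in the same order of contrasts. The difference between the sexes was not tested.

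Dyrk3, a protein kinase gene, gave 83.9, 44.2 and 17.1 CPM in the diploid, trisomy 2L and MSL2-trisomy 2L females, against 30.6, 37.4 and 30.4 CPM in males and 45.3, 18.3 and 18.6 CPM in the sex chromosome table. Dyrk3 was thus lower in the females of both karyotypes than in the diploid column of the same table, and not in the males. In diploid females 1 transcript gave 49.7 CPM in the autosomal table and 0.71 CPM in the other. Trisomy 2L females, at 44.2 CPM, were close to the other diploid female column, at 45.3 CPM, so their fold depends on the diploid column. The difference between the sexes was not tested for Dyrk3. Myoglianin (myo) and maverick (mav), ligands of the TGF-beta family, were lower in all 4 aneuploid female columns than in both diploid ones, but the smallest gaps were narrow: myo stood between 27.8 and 64.0 CPM against 65.4 and 68.5 CPM, and mav between 19.6 and 27.0 CPM against 29.1 and 43.5 CPM. Ephrin, the ligand of Eph, gave 83.4, 31.0 and 21.6 CPM in females of the autosomal table and 21.1 CPM in the other diploid female column. The single fold of Ephrin therefore depends on which diploid column is the denominator.

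The semaphorin receptor gene PlexA spanned a wide range. It gave 17.3 CPM in diploid females, 71.4 in trisomy 2L females and 35.6 in MSL2-trisomy 2L females, while males held 85.2, 74.9 and 45.9 CPM. It gave 10.6 CPM in diploid females, 14.9 in metafemales and 120 in MSL2-metafemales in the sex chromosome table, which lists a single PlexA transcript. The other semaphorin receptor, PlexB, stayed between 6.53 and 13.8 CPM in all 10 columns.

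Of the synapse and transport genes 5 of 10 were lower and 1 higher in trisomy 2L females and 6 of 9 were lower in MSL2-trisomy 2L females, against 22.2% and 33.8% lower of all genes. In trisomy 2L females 26% of all genes were higher. In each male contrast 4 of 10 were lower, and in the metafemale groups 3 of 9 and 3 of 8 were lower, shares near those of all genes (31.3%, 31.2%, 31.9% and 38.6%). Gat, the GABA transporter, gave 15.2, 4.71 and 1.5 CPM in females and 24.0, 5.05 and 6.28 CPM in males, whereas in the sex chromosome table it gave 11.8 CPM in diploid females, 34.4 in metafemales and 39.2 in MSL2-metafemales. With trisomy 2L the Gat columns were all below the diploid ones and with 3 X chromosomes they were above; the difference was not tested.

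Genes of synaptic vesicle release had levels too low to describe beyond their values. The vesicle priming factor unc-13 was at 4.89, 0.478 and 5.21 CPM in females and at 2.91, 0.883 and 0.456 CPM in males, and Cadps was at 2.07, 2.80 and 0.25 CPM in females. The immunoglobulin domain gene dpr7 was at 0.0152 CPM in diploid females and 7.52 CPM in diploid males, and its ratios, among the largest of the chromosome, rest on such values.

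Of the 8 genes for translation, mitochondria and RNA, 4 were lower and 1 higher in trisomy 2L females, 3 and 1 in those with MSL2, 2 and 2 in trisomy 2L males, 5 and 0 in males with MSL2, 3 and 1 in metafemales and 4 and 1 in MSL2-metafemales, where 22.2%, 33.8%, 31.3%, 31.2%, 31.9% and 38.6% of all genes were lower. The shares of all genes that were higher were 26%, 27.3%, 24.1%, 26.7%, 18.8% and 20.5%. The list also holds Rad23 and Thd1, whose products act in protein turnover and DNA repair; without these, a count chosen after seeing the data, 3, 2, 1, 4, 2 and 3 of 6 genes were lower in the same order of contrasts. The translation initiation scaffold eIF4G gave 15.5, 1.99 and 6.21 CPM in females and 8.43, 5.91 and 5.42 CPM in males. Transcripts of 4E-T, a partner of the cap-binding protein eIF4E, gave 28.7, 16.4 and 11 CPM in females and 29.3, 24.5 and 10.9 CPM in males. In MSL2-trisomy 2L females 3 of the 4 transcripts of 4E-T had no mean. The other transcript stood at 11 CPM, against 5.26 CPM in trisomy 2L females. In the diploid female, metafemale and MSL2-metafemale columns 4E-T gave 30.5, 17.9 and 26.8 CPM. ND-49, a subunit of respiratory complex I, held 142, 134 and 138 CPM in females and 152, 85.8 and 64.8 CPM in males. In diploid females 1 of its 2 transcripts had no mean, against 72.9 and 42 CPM in trisomy 2L females without and with MSL2. The other ND-49 transcript fell in both sexes, with 142, 61.5 and 96.3 CPM in females and 130, 59.4 and 46.7 CPM in males. The 33 complex I genes named ND- had medians of -0.0075 and 0.36 in the female contrasts of trisomy 2L, against -0.078 and -0.037 for ND-49, and the 39 in the male ones had 0.052 and -0.018, against -0.82 and -1.22. As a sum, ND-49 was thus below its family median in all 4, although its other diploid male column was at 75.5 CPM.

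Over-expression of MSL2 was compared within each karyotype, which takes the diploid columns out of the ratio. The fathers still differed in stock, which cannot be told apart from MSL2. The run was shared only in part, beyond the authors' batch adjustment. In trisomy 2L females chromosome 4 had a median log2 ratio of -0.33 over 191 transcripts, of which 122 (63.9%) were below 1, against -0.10 for 2R, 3L and 3R, a difference of -0.23. In trisomy 2L males the median was -0.14 over 197 transcripts, 120 (60.9%) of them below 1, against 0.022, a difference of -0.16. In metafemales it was 0.068 over 177 transcripts, 81 (45.8%) of them below 1, against -0.098, a difference of 0.17 in the opposite direction; the metafemale median turned to -0.041 with a pseudocount of 0.1 CPM and to -0.20 with equal column totals. The size of each difference is near that between the diploid columns of the 2 tables, 0.18 and 0.23. Of the transcripts of the other disomic autosomes 55.8%, 48.1% and 57.4% were below 1 in trisomy 2L females, trisomy 2L males and metafemales.

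By gene, 26 of 71 were at least 1.5-fold lower and 7 higher with MSL2 in trisomy 2L females, where 19.4% of all genes were lower and 10.9% higher. In trisomy 2L males 18 of 75 were lower and 2 higher, against 8.44% and 8.5%, and in metafemales 13 of 71 were lower and 8 higher, against 13.5% and 10.5%. In both trisomy 2L sexes the share of lower genes on chromosome 4 exceeded that of all genes, and in metafemales the gap was narrower. Summed over transcripts with both means, the lower genes numbered 24 of 69, 15 of 73 and 10 of 70, against 18.3%, 8.24% and 12.2% of all genes.

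The direction of each gene was then read across the karyotypes. In all 3 of them 14 of 72 genes were lower with MSL2, by any amount, against 18.2% of all genes, and 3 (Gyf, Ank and ey) were higher, against 10.6%. The share of lower genes was near the background. The 14 were apolpp, Arf102F, CG11360, CG1674, CG33941, Crk, fd102C, fuss, gw, Hcf, Actbeta, lgs, mGluR and yellow-h. A removed mean counts as 0 in these sums, which alone made gw lower in trisomy 2L females. Only Hcf and Actbeta were at least 1.5-fold lower in all 3, and only Gyf was at least 1.5-fold higher in all 3. Genes past 1.5-fold in all 3 were not counted over all genes, so these numbers have no background share.

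**Figure D4:**
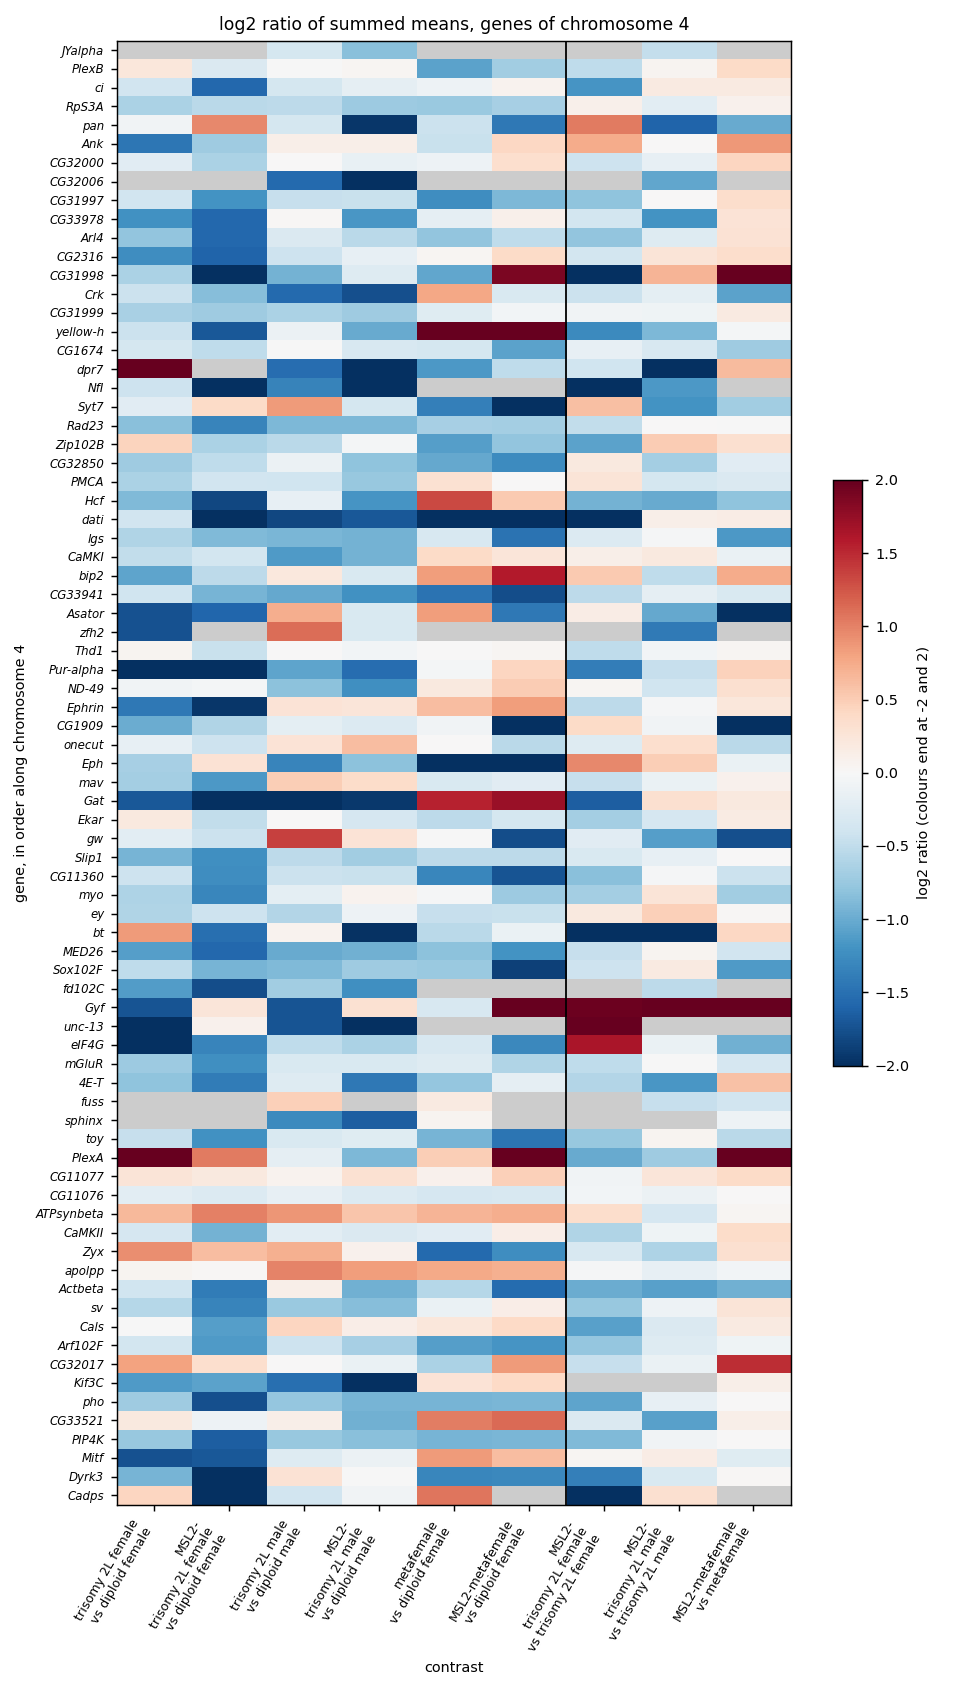
Log2 ratio of summed means (colour, blue lower and red higher, ending at -2 and 2) of the chromosome 4 genes in order along the chromosome (y axis) in the 9 contrasts (x axis; the black line parts the 6 contrasts to diploids from the 3 with against without MSL2). Grey cells lack a mean or have under 1 CPM in both columns; Gyf is red in all 3 MSL2 contrasts and blue cells are spread along the whole chromosome.

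Gyf (chr4:855400-867025) encodes the GYF domain protein of the fly, a homologue of the mammalian translational repressors GIGYF1 and GIGYF2. It gave 16.3 CPM in trisomy 2L females and 63.3 with MSL2, 19.7 CPM in trisomy 2L males and 81.0 with MSL2, and 30.5 CPM in metafemales and 191 with MSL2. These are log2 ratios of 1.96, 2.04 and 2.65. The diploid columns were at 53.6 and 38.1 CPM in females and 65.3 and 35.1 CPM in males, so the 3 columns without MSL2 were below every diploid column and MSL2-metafemales stood above all others. In males and in metafemales each Gyf transcript with both means was higher with MSL2; in MSL2-trisomy 2L females 1 transcript held the whole level and the other 2 had no mean.

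Activin-beta (Actbeta, chr4:1077331-1084796), another TGF-beta ligand, had 1 transcript row, at 5.43 CPM in trisomy 2L females and 2.73 with MSL2, 6.71 and 3.17 CPM in males, and 3.83 and 1.96 CPM in metafemales. Each MSL2 value of Actbeta was about 0.5 times that without MSL2, with log2 ratios of -0.99, -1.08 and -0.96, and all 3 were below the diploid columns (4.46 to 7.19 CPM). The host cell factor gene Hcf (chr4:359938-375554), whose product belongs to several chromatin-modifying complexes, gave 26.8 and 14.0 CPM in females, 35.2 and 17.4 CPM in males and 35.3 and 20.3 CPM in metafemales. In both trisomy 2L sexes 2 of the 4 Hcf transcripts had no mean with MSL2, and its diploid female columns were 49.2 and 14.1 CPM.

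The legless gene lgs was lower with MSL2 chiefly in metafemales (61.9 and 27.8 CPM), with log2 ratios of -0.28 and -0.03 in trisomy 2L females and males. The GW182 gene gw, whose product silences miRNA targets, gave 77.0 and 66.0 CPM without and with MSL2 in trisomy 2L females, 108 and 50.6 CPM in males and 82.7 and 24.4 CPM in metafemales. Arf102F, a small GTPase gene of membrane traffic, gave 119 and 69.5 CPM in females, 125 and 104 CPM in males and 68.6 and 64.9 CPM in metafemales. As sums, these 3 genes were each lower with MSL2 in every karyotype, by amounts that differed widely. For gw in trisomy 2L females the fall rests on removed means, since 2 of its 4 transcripts had no mean with MSL2. The other 2 were higher with MSL2, at 22.3 against 6.99 CPM and 43.7 against 32.5 CPM.

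**Figure D5:**
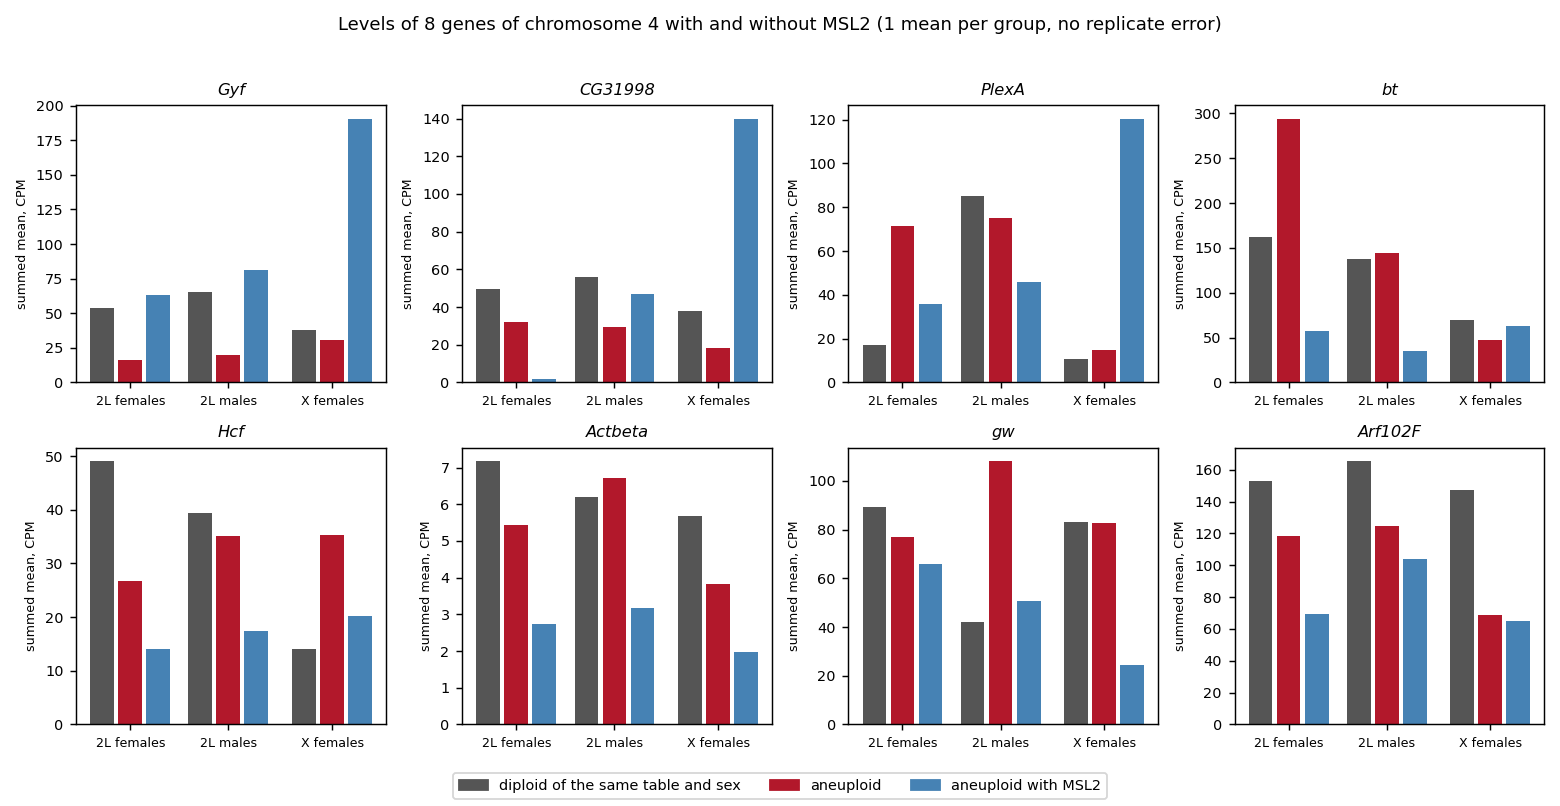
Summed mean level in CPM (y axes, from 0) of 8 genes in the same 3 sets of columns as for the genes lower than in diploids ("X females" are metafemales), with grey for the diploid, red for the aneuploid and blue for the aneuploid with MSL2; bars are 1 mean per group without replicate error. Gyf is higher with MSL2 in each set (63.3 against 16.3, 81.0 against 19.7 and 191 against 30.5 CPM), while CG31998 goes down to 1.95 CPM in 1 set and up to 140 CPM in another.

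Several genes went in opposite directions with MSL2. The uncharacterised gene CG31998 (chr4:196675-205945) gave 32.1 CPM in trisomy 2L females and 1.95 with MSL2, 29.2 and 46.9 CPM in males, and 18.5 and 140 CPM in metafemales. Both of its transcripts shared the low value in MSL2-trisomy 2L females, and 1 transcript carried the high value in MSL2-metafemales, 139 CPM against 16.1 without MSL2. PlexA was lower with MSL2 in both trisomy 2L sexes and higher in metafemales, by values given above. No test of these differences between karyotypes was possible.

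Projectin (bt, chr4:724400-776474), the titin-like protein of insect muscle, gave 163 CPM in diploid females, 294 in trisomy 2L females and 57.5 in MSL2-trisomy 2L females. In males it gave 138, 144 and 34.9 CPM, and in the other table it held 69.1 CPM in diploid females, 47.5 in metafemales and 63.0 in MSL2-metafemales. The 9 muscle markers had median log2 MSL2 ratios of 0.72 in trisomy 2L females, -0.47 in males and 0.059 in metafemales, against -2.36, -2.04 and 0.41 for bt. The transcripts of bt were not treated alike: 2 of the 3 in MSL2-trisomy 2L females had no mean, against 66.1 and 5.57 CPM for them without MSL2.

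Removed means weighed on other single genes in the same way. On chromosome 4, 50 transcripts with a mean in trisomy 2L females had none with MSL2, as did 41 in males and 30 in metafemales, while 1, 5 and 6 had a mean only with MSL2. They summed to 160, 35.4 and 115 CPM in the columns without MSL2. Asator, a kinase gene, and CG1909 gave such cases in MSL2-metafemales, where they were at 7.35 and 0.183 CPM against 35.2 and 6.14 CPM in metafemales.

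The position along the chromosome was examined next. With the transcripts cut into 3 equal parts in order of position, the median log2 ratios in trisomy 2L females were -0.62, -0.92 and -0.45, with MSL2 -0.92, -0.83 and -1.0, in trisomy 2L males -0.42, -0.18 and -0.16 and in metafemales -0.68, -0.49 and -0.28. All of them were below 0, and no part was lowest in every contrast. Transcripts of chromosome 4 span more genome than others, with a median of 9605 bp against 2960 bp on 2R, 3L and 3R.

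Within each class of span the difference to other autosomes was negative in trisomy 2L females, but its size varied. Chromosome 4 minus the others was -0.20 under 5 kb (51 transcripts), -0.65 from 5 to 20 kb (129) and -0.96 at 20 kb or more (33) without MSL2, and -0.57, -0.77 and -0.93 with it. The -0.20 is near the 0.18 between the diploid female columns, and its class held 8957 transcripts of the other autosomes. Without MSL2 the medians of the others were -0.30, 0.0047 and 0.030 in these classes. The part of span in the shift was not tested. By level, transcripts of 10 CPM or more differed by -0.37 (68 transcripts) in trisomy 2L females and by -0.65 (61) when MSL2 was added. In trisomy 2L males, metafemales and MSL2-metafemales the same class differed by 0.0081, 0.028 and 0.097. Transcripts of 1 to 10 CPM differed by -0.18, -0.43 and -0.19 in those contrasts, and transcripts under 1 CPM by 0.36, 0.0069 and -0.013, so that there the negative difference was seen in the middle class of level.

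In the ratio of summed CPM over genes below 500 CPM in both columns, which gives weight to the better measured genes, chromosome 4 stood at 0.744 in trisomy 2L females and 0.528 in MSL2-trisomy 2L females, against 0.970 and 0.934 for the other disomic autosomes. In males it stood at 0.780 and 0.675 against 0.898 and 0.928, and in metafemales at 0.823 and 0.959 against 0.894 and 0.898. With against without MSL2 it stood at 0.710 in trisomy 2L females, 0.866 in males and 1.16 in metafemales, against 0.973, 1.04 and 1.01.

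Regulators of chromosome 4 that are encoded elsewhere were read beside these values. The arm that holds each of them, and so its copy number in the aneuploids, was not taken into account. Pof transcripts were low in females and high in males: 14.8, 9.87 and 6.93 CPM in the diploid, trisomy 2L and MSL2-trisomy 2L females, 218, 120 and 126 CPM in the male columns, and 11.9, 9.74 and 6.63 CPM in the diploid female, metafemale and MSL2-metafemale columns. Pof was thus lower in each aneuploid column than in its diploid column. The HP1a gene gave 201, 196 and 132 CPM in females, 225, 212 and 244 CPM in males and 252, 102 and 78.4 CPM in the sex chromosome table, so the lowest values were those of both metafemale groups and of MSL2-trisomy 2L females. The egg gene gave 13.7, 29.6 and 31.5 CPM in females and 13.4, 35.1 and 38.6 CPM in males, but 34.7, 30.2 and 21.6 CPM in the other table, where the diploid level was higher than in the autosomal table. Whether any of them bears on chromosome 4 was not tested.

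JYalpha and CG32006 were high only in males. The first, a sodium pump subunit gene, gave 10.9, 8.55 and 6.11 CPM in diploid, trisomy 2L and MSL2-trisomy 2L males and at most 0.610 CPM in any female column. CG32006 gave 24.2, 8.27 and 4 CPM in the same males and at most 0.384 CPM in females. Both were lower in the trisomy 2L males than in diploid males of the same table; the other diploid male column held 7.88 CPM of JYalpha and 6.61 CPM of CG32006, above MSL2-trisomy 2L males but below trisomy 2L males, whose direction therefore depends on the diploid column. The same table had a lower value in trisomy 2L males for the sum of 7 testis markers, which went from 773 to 441 and 494 CPM; their part in these ratios was not tested.

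Of the 80 genes, 78 reached 1 CPM in at least 1 column of a contrast, and mir-954 and snoR:CD-24 did not. There were 10 pairs of overlapping genes, 9 of them on opposite strands, and strand-specific counting is not stated in the sources used here, so reads of such pairs may be shared. Zyx overlaps apolpp, which has far more reads, by 4033 bp, CG33941 overlaps Asator by 2068 bp and CG32017 overlaps Kif3C by 14693 bp, and their values are uncertain for that reason.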

How the data were processed

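The authors mapped reads to the Release 6 genome with HISAT2 and assembled and counted transcripts with StringTie. They divided counts by mapped reads to give CPM, used ComBat on the log scale to adjust for the sequencing runs, dropped any value of 0 or below and took the mean of replicates. The deposited values are these adjusted means, treated here as a score in CPM units rather than as counts, 1 per group, so depth per library, replicate spread and tests were out of reach. The tables also hold ratio columns with the authors' own comparisons, which were not used. CPM is not divided by length, so sums and shares over genes describe reads and not transcript numbers.

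From the means, log2 ratios were taken for transcripts with both means and for genes, summing transcripts (a removed mean as 0), with numpy 2.4.6 and pandas 2.3.3 in Python 3.11.15. A gene was counted as higher or lower past 1.5-fold with at least 1 CPM in either column, over all genes of the table as background. Genes were named by a rule: the 3 largest rises, falls and CPM changes in each of 9 contrasts, genes past 1.5-fold in at least 5 of 6 contrasts to diploids or in all 3 MSL2 contrasts, and members of role lists. Genes named outside it (such as CG31997, Arf102F, JYalpha and the overlapping genes) were chosen after their values were seen. Members and lists were chosen with earlier results of these data known. The ratio and counting steps were tested on simulated data. Alternatives covered pseudocounts, low-value filters, gene sums, scaling and the fold.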

Additional observations from a re-analysis of the deposited data

How the results depend on the processing

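No paired analysis was possible because each table holds 1 mean per group and no value per replicate; for the same reason no replicate could be left out. Of 90 recomputed medians of chromosome 4, 78 stayed within their tolerance (a 95% rank interval over transcripts, used only for this sorting), as did 75 of 81 differences to the other autosomes, and 36 of 45 counts of lower genes and 31 of 45 counts of higher genes stayed within 1.5 times. The cause of each change below was not tested, unless the setting makes it plain.

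With transcripts of at least 10 CPM the difference of chromosome 4 to the other autosomes reversed to 0.0081 in trisomy 2L males, 0.028 in metafemales and 0.097 in MSL2-metafemales, where summing to genes gave 0.055, and the MSL2 contrast of trisomy 2L females moved to -0.43 (median -0.50), while the median of MSL2-metafemales moved to -0.26. Against all other chromosomes the difference of MSL2-trisomy 2L males was -0.41. A pseudocount of 0.1 CPM moved the median of trisomy 2L females to -0.46 and that of the MSL2 contrast in females to -0.51; one of 1 CPM moved the medians to -0.38 in trisomy 2L females, -0.59 in those with MSL2 and -0.21 in metafemales. The MSL2 median of metafemales reversed to -0.041 and -0.028 with the 2 pseudocounts and to -0.20 with equal column totals. The MSL2-metafemale median against diploids was -0.77 with equal totals and -0.28 with a trimmed mean as the zero; over the 9 contrasts that trimmed mean lay between -0.30 and 0.012.

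At 2-fold, which by construction counts fewer genes, 16 of 74 genes were lower in trisomy 2L females (7.46% of all genes at this fold), 15 of 78 in the males (16.7%), 19 of 77 in MSL2-trisomy 2L males (18.5%), 14 of 72 in metafemales (17.2%), and in the MSL2 contrasts 14 of 71 in females (8.93%) and 7 of 71 in metafemales (5.4%). With genes of at least 10 CPM the MSL2 contrasts had 17 of 52, 9 of 51 and 8 of 50 lower genes, against 17.2%, 6.61% and 10.4% of all genes.

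With only the most abundant transcript of a gene, 10 values changed sign on the log2 scale: Eph in trisomy 2L females (0.15), Asator and CG1909 in MSL2-trisomy 2L females (3.12 and 0.38), Sox102F in trisomy 2L males (0.0096) and metafemales (0.051), pan in MSL2-trisomy 2L males against diploids (0.32) and against trisomy 2L males (0.72), Asator and Zip102B in MSL2-metafemales (0.17 and 0.15), and Asator against metafemales (1.46). CPM values come without their depth, so low levels cannot be given an error.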

Other observations

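The genes of chromosome 4 named CR plus digits, mostly noncoding and left out of the report, numbered 24 (27 transcripts) in the autosomal table and 20 (22 transcripts) in the sex chromosome table. Their median log2 ratio to diploids was -1.05 over 23 transcripts in trisomy 2L females, -1.68 over 17 in MSL2-trisomy 2L females, -1.0 over 22 in trisomy 2L males and -1.07 over 22 in MSL2-trisomy 2L males. In metafemales it was -0.20 over 19 transcripts and in MSL2-metafemales 0.18 over 15. Their levels were low, summing to 38.7 CPM in diploid females and 23.6 CPM in trisomy 2L females, and at most 9 of their transcripts reached 1 CPM in any contrast.

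Male over female ratios on chromosome 4 were near those of the other autosomes. The median log2 ratio was 0.10 in diploids over 206 transcripts, 0.26 in trisomy 2L larvae over 233 and 0.42 in MSL2-trisomy 2L larvae over 171, against 0.12, 0.18 and 0.27 on 2R, 3L and 3R. These ratios share columns with the contrasts of the report.

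Top2, the DNA topoisomerase II gene, stood at 46.4 CPM in diploid females of the autosomal table, against 174 CPM in trisomy 2L females and 157 CPM in those with MSL2. In the sex chromosome table, normalised separately, the diploid female column was at 170 CPM, above the 108 and 91.0 CPM of metafemales and MSL2-metafemales. The size, and in all of these but trisomy 2L females the direction, thus depends on which diploid column is the denominator. The arm that holds Top2, and so its copy number in the aneuploids, was not taken into account.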
